A study of Homo sapiens with 6 samples.

Results

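The 10 genes described here encode enzymes and carriers that interconvert lactate and pyruvate and pass pyruvate into mitochondria: LDHA, LDHB, MPC1, MPC2, PDHA1, PDHB, DLAT, PDK1, PDK2 and PC. They were taken by gene symbol from a table of 35009 genes, and each symbol had 1 row. RNA came from cultured macrophages derived from THP-1, an established line of human leukaemic monocytes. All cells had been given ox-LDL, that is, oxidised low-density lipoprotein, whose uptake turns macrophages of the artery wall into foam cells. In 3 libraries, called siMCT4 below, MCT4 was deficient; in the other 3, the controls, the genotype label reads control, and both groups received ox-LDL. MCT4, the product of SLC16A3, exports lactate together with protons. The labels do not give the ox-LDL dose or time, the siRNA sequence or whether controls received a non-targeting siRNA, so loss of MCT4 and treatment with an siRNA cannot be told apart. Nor do they say that the 3 libraries of a group came from separate cultures, so the p-values measure the spread between these samples, which may be technical.

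Lactate dehydrogenase is a tetramer of LDHA and LDHB subunits that turns pyruvate into lactate and back while exchanging NADH and NAD+. Pyruvate that is not reduced to lactate enters mitochondria through a carrier built of MPC1 and MPC2. There the pyruvate dehydrogenase complex, with PDHA1, PDHB and DLAT among its subunits, oxidises it to acetyl-CoA, and kinases such as PDK1 and PDK2 switch the complex off by phosphorylating PDHA1. Pyruvate carboxylase, encoded by PC, is the other mitochondrial entry and makes oxaloacetate. In activated macrophages the balance between lactate release and mitochondrial pyruvate use is a known feature of metabolic reprogramming.

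Total counts ran from 61880619 to 69103124 in siMCT4 libraries and from 65010219 to 69181938 in controls, and a member had 956 to 21083 counts in a library. All 10 monocyte and macrophage markers looked up were above 1 FPKM (reads scaled to a gene length of 1 kilobase and to 1000000 fragments in the library) in both groups, with sums of 884 to 913 FPKM in siMCT4 libraries and 1016 to 1051 FPKM in controls. CD68 made up the largest share of these sums, with a mean of 432 FPKM in siMCT4 libraries and 381 FPKM in controls. By edgeR 7 of the 10 markers were called lower and 0 higher, beside 20.8% lower and 20.6% higher among all genes tested. The median log2 change of the markers was -0.36, against -0.37 over the members described here. CD14 had 1.43, 1.54 and 2.48 FPKM in siMCT4 libraries, against 6.75, 6.50 and 7.00 FPKM in controls, and FCGR1A 7.76, 7.94 and 7.64 FPKM in siMCT4 libraries, against 22.4, 23.2 and 22.7 FPKM in controls. CSF1R had 183.8, 182.9 and 165.2 FPKM in siMCT4 libraries, against 303.5, 309.0 and 289.5 FPKM in controls. All 3 were lower in every siMCT4 library. In ITGAM, CD33 and SPI1 the groups overlapped. ITGAM had 146.8, 147.2 and 140.9 FPKM in siMCT4 libraries, against 151.5, 155.9 and 145.4 FPKM in controls. SPI1 had 70.3, 57.5 and 107.7 FPKM in siMCT4 libraries, against 75.7, 74.3 and 72.0 FPKM in controls. Of 6 T and B cell markers 2 were listed, with sums of 1.68 to 1.99 FPKM in siMCT4 libraries and 0.368 to 0.475 FPKM in controls. Of these, CD79A was called higher, with 1.78, 1.84 and 1.45 FPKM in siMCT4 libraries and 0.185, 0.168 and 0.263 FPKM in controls. The other was not called. Of 8 endothelial, fibroblast and epithelial markers 7 were listed, with sums of 42.7 to 46.5 FPKM in siMCT4 libraries and 61.2 to 63.5 FPKM in controls. Most of each sum was PECAM1, which monocytes also express. The fibroblast marker COL1A2 had 2.64, 2.28 and 0 FPKM in siMCT4 libraries 1, 2 and 3 and 0 FPKM in every control. Each other listed marker was under 1 FPKM in every library. The part of these shifts of all 3 marker lists in the results was not tested. SLC16A3 had 691, 768 and 949 counts in siMCT4 libraries 1, 2 and 3, against 7708, 6428 and 6848 counts in controls, so every library matched its label (log2 change -3.20, SE 0.102, adjusted p = 1.12e-06 by edgeR); it overlaps CSNK1D on the opposite strand. Library 3 of siMCT4 stood apart from its group: a chi-square of counts over genes, per degree of freedom, was 53.6 against library 1 and 61.3 against library 2, but 9.13 between libraries 1 and 2 and 12.7 to 17.5 between controls. Genes with a GC content of 60% or more had a median log2 ratio to the control mean of -0.57 and -0.60 in siMCT4 libraries 1 and 2, and of -0.18 in library 3. Each member is therefore given by library.

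MCT4-deficient macrophages had less mRNA of the mitochondrial entry enzyme PC, of the carrier subunit MPC2 and of the kinases PDK1 and PDK2, and these 4 falls passed the test in all 18 alternative settings tried. PC stood at 0.265 of its control level, MPC2 at 0.398, PDK1 at 0.497 and PDK2 at 0.625. The lactate dehydrogenases, MPC1, PDHA1 and PDHB were lower by smaller amounts, with folds of 0.764 to 0.908, and each of these 5 lost its call in at least 1 setting. DLAT was not called. In all, 9 of the 10 genes were called lower by edgeR's quasi-likelihood test at a Benjamini-Hochberg adjusted p under 0.05, which gives every adjusted p below unless another tool is named. By edgeR 0 were called higher, 0 were higher at an unadjusted p under 0.05, and 0 were called higher by DESeq2 or limma. The count of members called lower was 5 without control library 1, 2 or 3. Of all genes tested, 3253, 3195 and 3251 were lower in these fits, against 4144 with all libraries. Among all 19944 genes tested, 41.4% were called, 20.8% as lower and 20.6% as higher. On log2(TPM + 1) 68.4% of calls were higher, and on log2(FPKM + 0.1) 59.9%, against 49.8% here. The median log2 change was -0.37 over the members and -0.01 over all genes tested. The 9 called members were also those whose 3 FPKM values per group did not overlap, a pattern that 55.1% of tested genes showed. Together the 10 genes took 0.0677% to 0.0756% of all counts in siMCT4 libraries and 0.0931% to 0.0953% in controls. These are values per mass of RNA from whole cultures, in which fewer cells of a kind and less RNA per cell cannot be told apart.

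**Figure D1:**
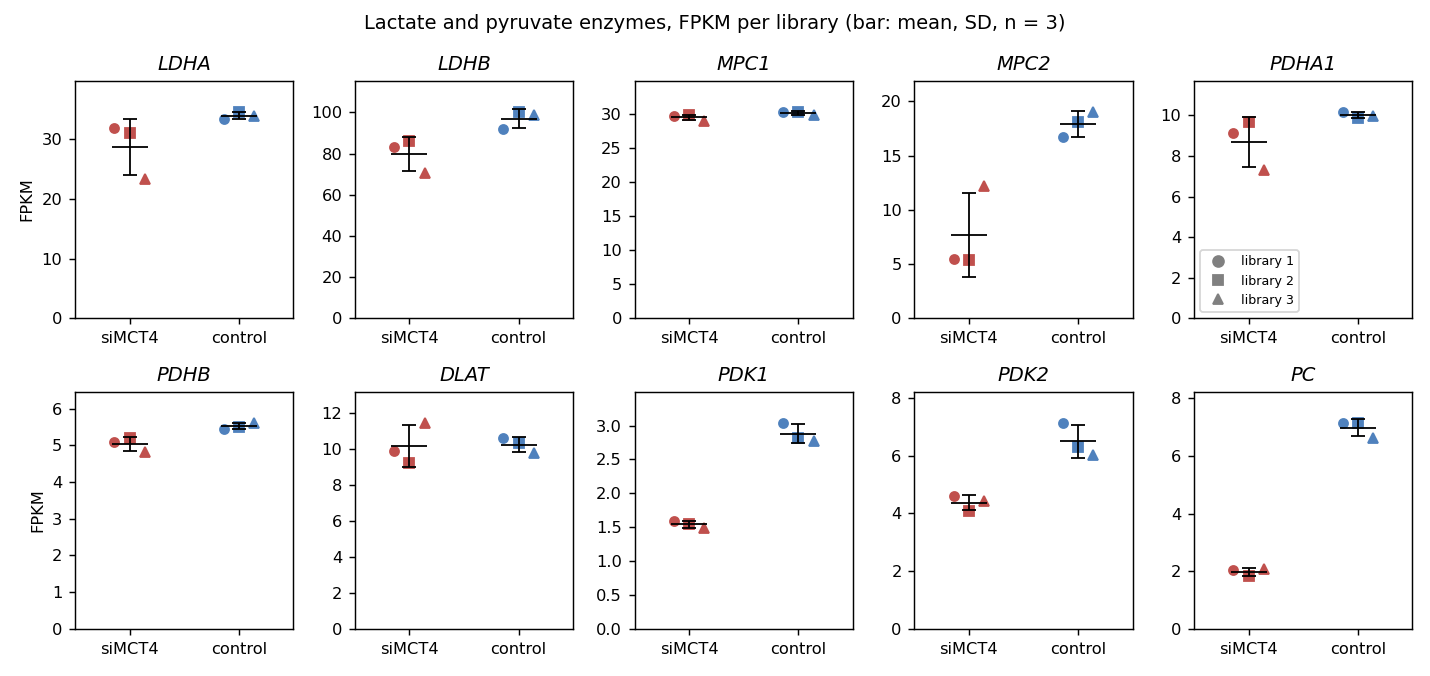
FPKM of the 10 genes in each library, siMCT4 left and control right in every panel; points are libraries (circle 1, square 2, triangle 3), bars are means with SD, and the vertical axes start at 0. PC, PDK1 and PDK2 form separate groups, while siMCT4 library 3 stands apart for MPC2 (12.2 FPKM against 5.49 and 5.38).

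Lactate dehydrogenase was the most abundant enzyme of the set. LDHB (ENSG00000111716; GRCh38 chromosome 12, 21635342 to 21657971, - strand), which encodes the subunit of heart-type lactate dehydrogenase, stood at 83.0, 86.2 and 70.5 FPKM in siMCT4 libraries 1, 2 and 3, against 91.8, 100.2 and 98.8 FPKM in controls. All siMCT4 values lay under all control values, and library 3 was the lowest. The log2 change was -0.39 (SE 0.0786, adjusted p = 0.00615). It held in 17 of 18 settings and was lost on TPM (-0.19, adjusted p = 0.0936 by limma, the highest of the settings; the lowest was 8.62e-05). LDHA (ENSG00000134333; chromosome 11, 18394560 to 18408218, + strand), the subunit of muscle-type lactate dehydrogenase, had 31.8, 31.0 and 23.4 FPKM in siMCT4 libraries and 33.4, 34.6 and 34.0 FPKM in controls. Again the groups did not overlap, but libraries 1 and 2 were only slightly under the controls and library 3 carried most of the difference. The log2 change of LDHA was -0.35 (SE 0.109, adjusted p = 0.0355). Over settings that keep more than 1 siMCT4 library, its adjusted p ranged from 0.000922 by edgeR to 0.279 by limma on TPM. The call was lost in 8 of 18 settings, among them without control library 1, 2 or 3 (adjusted p = 0.086, 0.0969 and 0.091). Library 3 alone gave a log2 change of -0.64 against the controls, and libraries 1 and 2 without it gave -0.22 (adjusted p = 0.000922).

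The balance of both subunits did not differ beyond the spread between libraries. LDHA per LDHB, as a ratio of FPKM within a library, stood at 0.384, 0.360 and 0.332 in siMCT4 libraries 1, 2 and 3, against 0.364, 0.345 and 0.344 in controls, so the groups overlapped. Such a ratio does not depend on how libraries are scaled. LDHA made up 26.4% of the summed FPKM of both genes in siMCT4 libraries and 26.0% in controls. The log2 ratio differed by 0.028 between groups, with SDs of 0.104 in siMCT4 and 0.0461 in controls (exact two-sided permutation p = 0.7, 20 assignments of the 6 libraries). Its sign turned without siMCT4 library 1 (-0.022) and with siMCT4 library 3 alone (-0.079). Processed copies of LDHA took few reads: LDHAP2 and LDHAP4, the most abundant of them, had 377 and 361 counts over all 6 libraries together, against at least 10408 for LDHA in each library.

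The subunits of the mitochondrial pyruvate carrier differed, with MPC2 lower in siMCT4 libraries and MPC1 nearly level. MPC2 (ENSG00000143158; chromosome 1, 167916675 to 167937072, - strand) had 5.49, 5.38 and 12.2 FPKM in siMCT4 libraries 1, 2 and 3, against 16.7, 18.1 and 19.0 FPKM in controls. Every siMCT4 value was under every control value, yet library 3 lay well above libraries 1 and 2. MPC2 had a log2 change of -1.33 (SE 0.309, adjusted p = 0.0113, range over settings 4.72e-07 to 0.0425). Without siMCT4 library 3 it fell by 1.83 (adjusted p = 4.72e-07), and library 3 alone gave -0.66. The gap between library 3 and the mean of libraries 1 and 2, 1.17 on the log2 scale, was larger than in 98.0% of 11012 genes with a mean log2 CPM above 2. MPC2 has a GC content of 46.5%, and with a GC correction its change was -1.36 (adjusted p = 0.0107). Its gene overlaps DCAF6 on the opposite strand over 1290 bases, and DCAF6 had 3927, 3994 and 4370 counts in siMCT4 libraries and 4156, 3494 and 3649 in controls. Whether MPC2 and DCAF6 shared reads was not tested.

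MPC1 (ENSG00000060762; chromosome 6, 166364919 to 166383013, - strand), the other subunit of the carrier, was nearly level, at 29.7, 29.9 and 29.1 FPKM in siMCT4 libraries and 30.3, 30.4 and 29.9 FPKM in controls. The groups nearly touched, the highest siMCT4 and the lowest control value both rounding to 29.9 FPKM. A log2 change of -0.14 (SE 0.0468, adjusted p = 0.0472, range over settings 0.00776 to 0.520) passed just inside the threshold, was not called in 15 of 18 settings and turned to 0.061 on TPM (adjusted p = 0.195 by limma). The call was lost without control library 1, 2 or 3 and without siMCT4 library 1 or 2 (adjusted p = 0.0976 to 0.163). MPC1 per MPC2 stood at 5.41, 5.55 and 2.39 in siMCT4 libraries, against 1.82, 1.68 and 1.57 in controls. All siMCT4 ratios were above all control ratios, and the log2 ratio was higher by 1.30, with SDs of 0.693 in siMCT4 and 0.104 in controls. The exact two-sided permutation p was 0.1, the smallest that 3 against 3 libraries allows, and 0.133 adjusted over the 4 ratios compared. With siMCT4 library 3 alone the difference was 0.50.

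**Figure D2:**
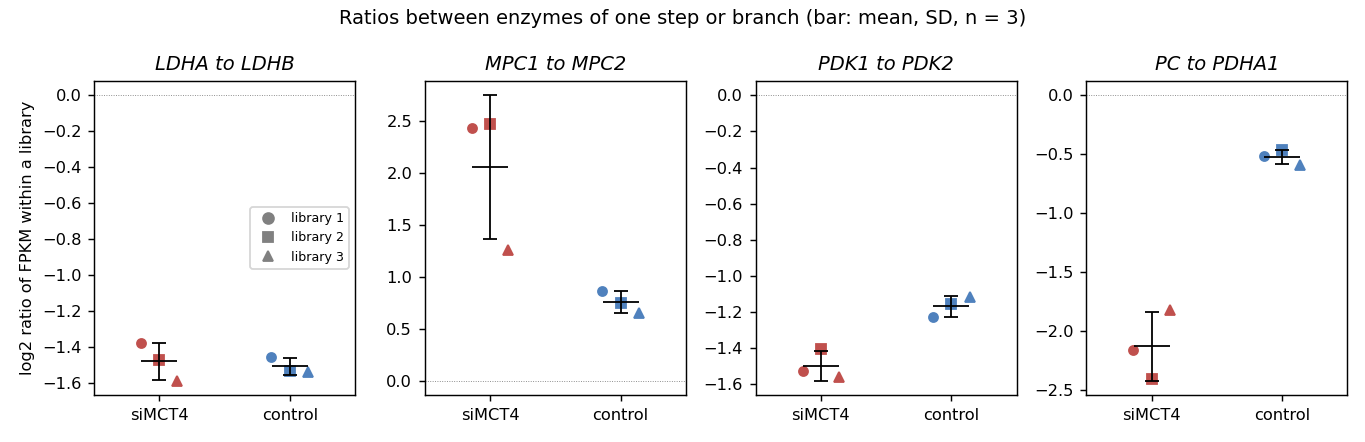
Log2 ratios of FPKM between pairs of the genes within each library, siMCT4 left and control right; points are libraries and bars are means with SD (n = 3). The MPC1 to MPC2 ratio was higher in siMCT4, the PDK1 to PDK2 and PC to PDHA1 ratios were lower, and the LDHA to LDHB ratios overlapped.

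Changes of the catalytic subunits of pyruvate dehydrogenase were small. PDHA1 (ENSG00000131828; chromosome X, 19343893 to 19361718, + strand), the alpha subunit of the decarboxylase and the target of the kinases, had 9.14, 9.66 and 7.32 FPKM in siMCT4 libraries and 10.2, 9.87 and 9.98 FPKM in controls. Library 3 was again the lowest, and the log2 change was -0.31 (SE 0.09998, adjusted p = 0.0415). Over settings that keep more than 1 siMCT4 library, the adjusted p ranged from 0.00741 by edgeR to 0.376 by limma on TPM. The call was lost in 10 of 18 settings. Among these were the fits without siMCT4 library 1 (adjusted p = 0.0683) and without control library 1, 2 or 3 (adjusted p = 0.12, 0.0908 and 0.104). PDHB (ENSG00000168291; chromosome 3, 58427630 to 58433857, - strand), the beta subunit, had 5.09, 5.204 and 4.82 FPKM in siMCT4 libraries and 5.44, 5.51 and 5.62 FPKM in controls. Its groups did not overlap and its log2 change was -0.24 (SE 0.0630, adjusted p = 0.0182, range over settings 0.00373 to 0.586). That call was lost in 9 of 18 settings, including without control library 1, 2 or 3 (adjusted p = 0.0556, 0.0608 and 0.068) and without siMCT4 library 1 (adjusted p = 0.0515).

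DLAT (ENSG00000150768; chromosome 11, 112025408 to 112064389, + strand) encodes the acetyltransferase that forms the core of the complex. Its values were 9.87, 9.19 and 11.5 FPKM in siMCT4 libraries and 10.6, 10.3 and 9.76 FPKM in controls, so the groups overlapped. The log2 change was -0.12 (SE 0.0842, adjusted p = 0.314, range over settings 0.0105 to 0.925). Libraries 1 and 2 of siMCT4 were below the control mean and library 3 above it. Without library 3 the change was -0.21 (adjusted p = 0.0105), and library 3 alone gave 0.058.

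Among the kinases that inactivate pyruvate dehydrogenase, PDK1 and PDK2 fell in all siMCT4 libraries alike. PDK1 (ENSG00000152256; chromosome 2, 172555373 to 172595969, + strand), a kinase known to be induced in hypoxia, had 1.59, 1.54 and 1.495 FPKM in siMCT4 libraries and 3.04, 2.82 and 2.78 FPKM in controls. The siMCT4 values spanned a narrow range far under the controls, and the log2 change was -1.01 (SE 0.0627, adjusted p = 2.11e-05). PDK1-AS1, on the opposite strand, had 51, 54 and 53 counts in siMCT4 libraries and 96, 135 and 78 in controls, few beside the 1564 or more of PDK1 in each library. PDK2 (ENSG00000005882; chromosome 17, 50094737 to 50112152, + strand), a kinase of broad tissue expression, had 4.59, 4.09 and 4.41 FPKM in siMCT4 libraries and 7.14, 6.30 and 6.03 FPKM in controls. Its groups did not overlap either, and its log2 change was -0.68 (SE 0.0844, adjusted p = 0.000605). PDK2 transcripts have a GC content of 58.5%, and with a GC correction the log2 change was -0.49 (adjusted p = 0.00253, range over settings 6.94e-10 to 0.00517). PDK1 per PDK2 was 0.347, 0.378 and 0.339 in siMCT4 libraries, all below the 0.426, 0.448 and 0.461 of controls. This log2 ratio differed by -0.33 (exact two-sided permutation p = 0.1, or 0.133 adjusted over the 4 ratios), with SDs of 0.0831 in siMCT4 and 0.0575 in controls, and by -0.59 after GC correction.

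Pyruvate carboxylase showed the largest fall of the 10 genes. PC (ENSG00000173599; chromosome 11, 66848417 to 66958386, - strand) had 993, 963 and 1117 counts in siMCT4 libraries 1, 2 and 3, against 3906, 3684 and 3454 counts in controls. In FPKM it averaged 1.98 ± 0.136 in siMCT4 libraries and 6.97 ± 0.293 in controls (SD, n = 3 each), with no siMCT4 library near the controls. The log2 change was -1.92 (SE 0.0721, adjusted p = 2.48e-06), and -1.87, -2.04 and -1.85 in libraries 1, 2 and 3 against the control mean. PC transcripts have a GC content of 61.2%, and with a GC correction the change was -1.55 (adjusted p = 3.25e-06, range over settings 5.41e-99 to 0.000296). Library 3 alone gave -1.85. LRFN4 overlaps PC on the opposite strand over 3829 bases and had 73, 68 and 863 counts in siMCT4 libraries and 829, 682 and 651 counts in controls. Whether PC and LRFN4 shared reads was not tested. PC per PDHA1, the ratio of both mitochondrial entries of pyruvate, stood at 0.224, 0.189 and 0.283 in siMCT4 libraries, against 0.700, 0.725 and 0.664 in controls. All siMCT4 ratios lay under all control ratios. The log2 ratio differed by -1.60 (exact two-sided permutation p = 0.1, or 0.133 adjusted over the 4 ratios), with SDs of 0.291 in siMCT4 and 0.0635 in controls.

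**Figure D3:**
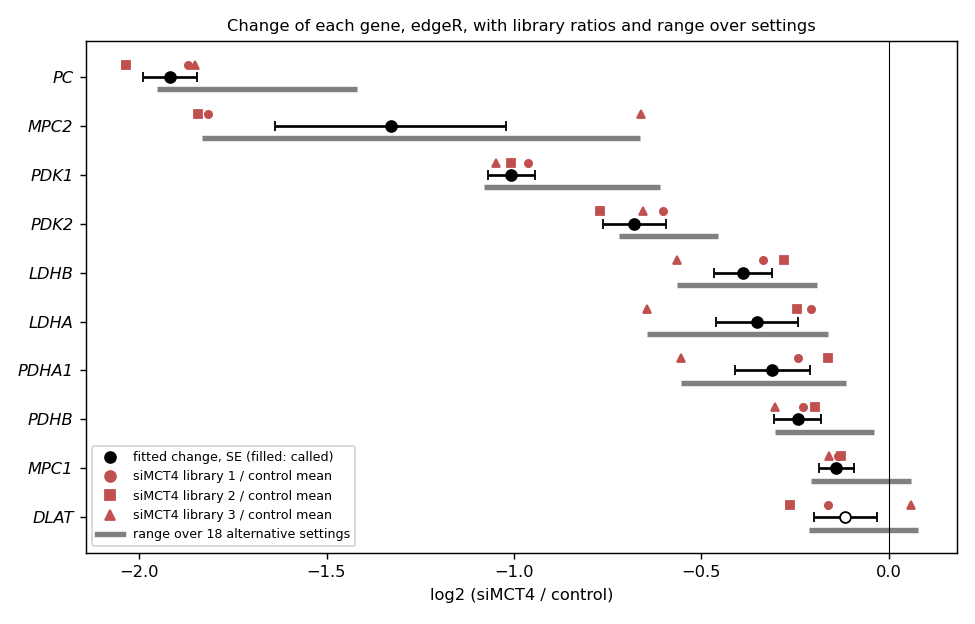
Log2 change of each gene, siMCT4 over control; black points with bars are the edgeR estimate and its SE (filled where called), red symbols above them each siMCT4 library against the control mean, and grey bars below them the range over 18 alternative settings. PC, PDK1, PDK2, MPC1 and PDHB have closely placed libraries, MPC2 has widely spread ones, and the grey bars of MPC1 and DLAT cross 0.

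Levels per length ordered the genes differently in each group. In siMCT4 libraries the order of mean FPKM was LDHB (79.9), MPC1 (29.6), LDHA (28.8), DLAT (10.2), PDHA1 (8.71), MPC2 (7.68), PDHB (5.04), PDK2 (4.36), PC (1.98) and PDK1 (1.54). Values of MPC1 and LDHA overlapped there, as did those of DLAT, PDHA1 and MPC2. In controls it was LDHB (97.0), LDHA (34.0), MPC1 (30.2), MPC2 (17.9), DLAT (10.2), PDHA1 (10.01), PC (6.97), PDK2 (6.49), PDHB (5.52) and PDK1 (2.88). DLAT and PDHA1 overlapped in controls, and so did PC and PDK2. MPC2 was below DLAT in mean level in siMCT4 but above it in controls, and PC was below PDK2 and PDHB in siMCT4 but above both in controls.

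Other genes around pyruvate were looked up by 7 lists, of which 43 of 47 genes were listed and 41 tested. Of these, 4 were called higher, 15 lower and 22 not called (median log2 change -0.26), beside a background of 20.6% higher and 20.8% lower. Regulators of pyruvate dehydrogenase went in both directions. PDP2, a phosphatase that reactivates the complex, had 8.79, 8.25 and 8.25 FPKM in siMCT4 libraries and 5.10, 5.32 and 5.61 FPKM in controls, a log2 change of 0.55 (SE 0.0593, adjusted p = 0.000311) that passed in all 18 settings. PDPR, a regulatory subunit of the phosphatase that has a near-identical copy in the genome, fell by 0.42 (SE 0.0502, adjusted p = 0.000527), and the kinase PDK3, at 0.555 ± 0.0572 FPKM in siMCT4 libraries and 0.700 ± 0.0175 FPKM in controls (SD, n = 3 each), fell by 0.45 (adjusted p = 0.0121, lost in 4 of 17 settings, among them without control library 1 at 0.0528). PDK4 was not called by edgeR, with a log2 change of -2.11 (SE 0.891, adjusted p = 0.0980). It had 36, 28 and 0 counts in siMCT4 libraries and 104, 91 and 75 counts in controls, without overlap. PDK4 was called lower in 6 of 17 settings, among them DESeq2 (adjusted p = 0.0401), the 3 limma fits and the fit without siMCT4 library 3 (-1.52, adjusted p = 0.0038). The phosphatase PDP1 was not called either (0.057, adjusted p = 0.360), but was called higher in 4 of 18 settings, up to 0.25 on TPM (adjusted p = 0.00386 by limma). PDHX, which tethers the last enzyme of the complex to the DLAT core, had 19.98, 19.95 and 19.02 FPKM in siMCT4 libraries and 11.3, 12.8 and 10.9 FPKM in controls. It rose by 0.64 (SE 0.0647, adjusted p = 0.000222) in all 18 settings, while PDHB fell and DLAT was not called. PDHX overlaps APIP on the opposite strand over 551 bases, and APIP had 1562, 1974 and 1690 counts in siMCT4 libraries and 994, 1126 and 1155 counts in controls, so shared reads cannot be told apart. DLD, that last enzyme, had a log2 change of -0.14 (adjusted p = 0.0412) that was lost in 14 of 18 settings, among them without siMCT4 library 1 or 2 and without each control library, and turned to 0.055 on TPM. LIAS, LIPT1 and LIPT2 were not called.

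Outside the complex, 4 of 9 tested genes of pyruvate supply and other exits were lower and 0 higher. The background for this list and the next was 20.8% lower and 20.6% higher among all genes tested. ME1, the cytosolic malic enzyme that makes pyruvate and NADPH from malate, had 19.0, 19.0 and 19.3 FPKM in siMCT4 libraries and 54.7, 56.6 and 53.9 FPKM in controls, and fell by 1.64 (SE 0.0404, adjusted p = 3.91e-07). PCK2, mitochondrial phosphoenolpyruvate carboxykinase, had a log2 change of -0.74, the alanine transaminase GPT2 of -0.73 and GLO1, which clears methylglyoxal, of -0.62 (adjusted p = 8.89e-05, 8.93e-05 and 0.000193). PCK2 has a GC content of 60.1%, and its change was -0.44 after GC correction (adjusted p = 0.00501). PKM, the pyruvate kinase that feeds the pathway, was not called (log2 change -0.056, SE 0.0670, adjusted p = 0.547). Among 11 genes next to acetyl-CoA and oxaloacetate 6 were lower and 1 higher: the log2 change was -0.92 for the acetate-activating enzyme ACSS2, -0.80 for the transaminase GOT1, -1.63 for the dicarboxylate carrier SLC25A10 and -0.35 for mitochondrial malate dehydrogenase MDH2. The adjusted p-values were 0.00011, 0.00114, 0.0041 and 0.000813. SLC25A10, with a GC content of 64.9% and a level under 1 FPKM, had -0.95 after GC correction (adjusted p = 0.0104) and -0.55 on log2(FPKM + 1) (adjusted p = 0.00693 by limma), and MDH2 had -0.15 on TPM (adjusted p = 0.0247 by limma). SLC25A1, the citrate carrier and another of the 6, lost its call with GC correction, at 0.023 against -0.84 without it (adjusted p = 0.896 and 0.00682). MDH1, the cytosolic counterpart of MDH2, rose by 0.40 (adjusted p = 0.00445), and by 0.22 in library 3 alone. HLCS, the ligase that attaches biotin to pyruvate carboxylase and the other carboxylases, fell by 0.43 (SE 0.0771, adjusted p = 0.00359, lost in 1 of 18 settings). Of the lactate dehydrogenase relatives LDHAL6B was called higher (0.60, adjusted p = 0.0207), but the call was lost in 7 of 18 settings, among them without siMCT4 library 1 or 2 and without control library 2 or 3. LDHAL6B lies within MYO1E on the opposite strand, and MYO1E had 36973, 40128 and 42380 counts in siMCT4 libraries and 49261, 46761 and 43287 counts in controls.

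**Figure D4:**
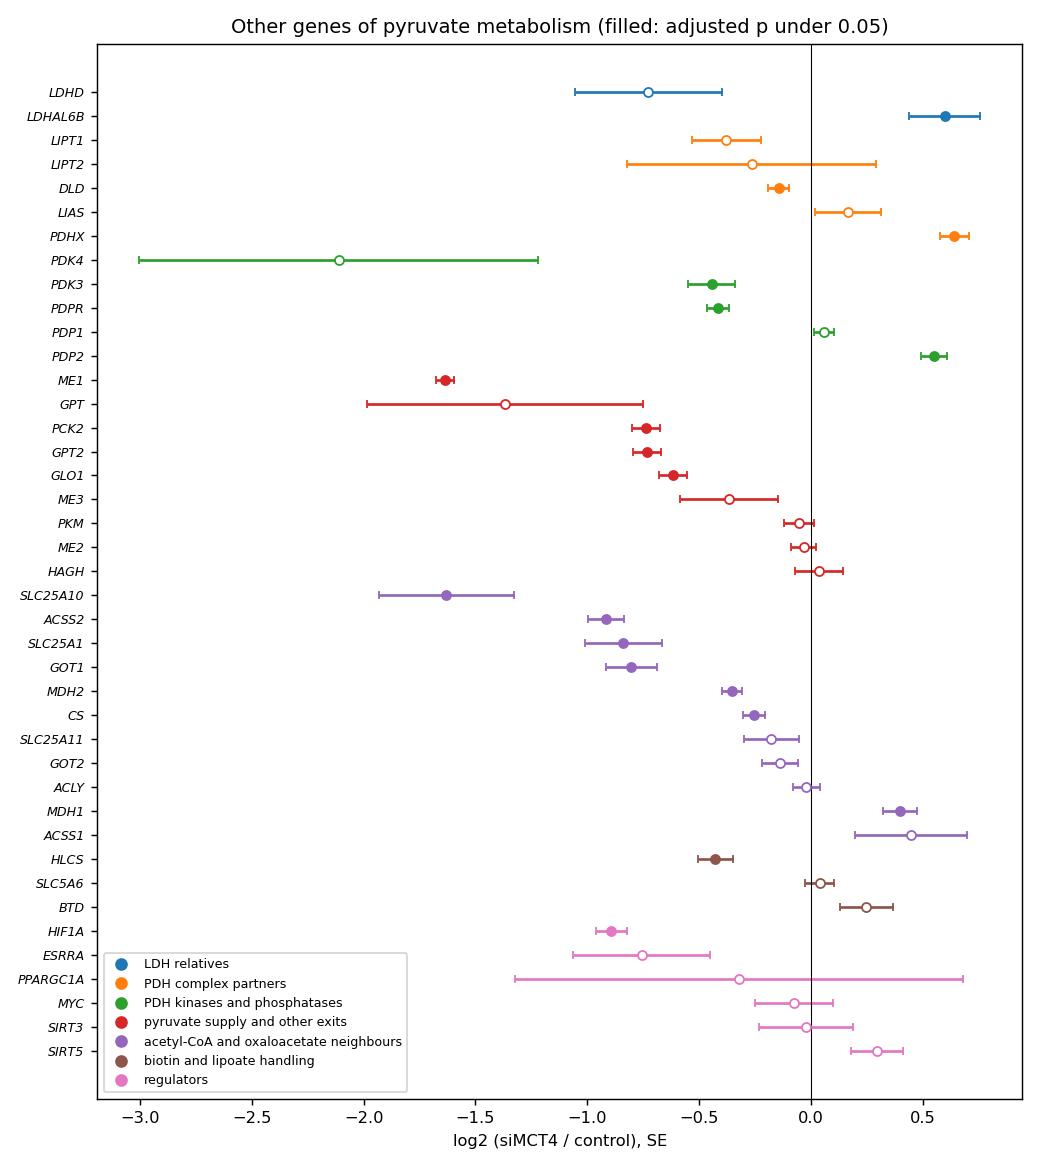
Log2 change, siMCT4 over control, with SE for the 41 other tested genes, coloured by list; filled points passed an adjusted p under 0.05. PDP2, PDHX, MDH1 and LDHAL6B are the filled points right of 0, and ME1 and SLC25A10 the filled points farthest left.

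HIF1A, the oxygen-regulated subunit of hypoxia-inducible factor, was the 1 regulator called among 6, against 41.4% of all genes tested. It had 43.6, 43.0 and 50.0 FPKM in siMCT4 libraries and 81.7, 79.1 and 74.2 FPKM in controls, and fell by 0.89 (SE 0.0692, adjusted p = 6.13e-05) in all 18 settings. Hypoxia-inducible factor binds a short core motif, and LDHA and PDK1 are textbook targets of it. Its protein was not measured, and its part in the changes of these genes was not tested. MYC was not called (log2 change -0.075, adjusted p = 0.764), but its siMCT4 libraries 1, 2 and 3 stood at -0.35, -0.31 and 0.33 against the control mean. Without library 3 it was called lower (-0.33, adjusted p = 0.00103), while library 3 alone gave 0.33. ESRRA was not called (-0.76, adjusted p = 0.0868); it was called lower without siMCT4 library 3 (-1.25, adjusted p = 2.3e-05) and by DESeq2 (adjusted p = 0.0161), and had -0.15 after GC correction (adjusted p = 0.428). PPARGC1A, SIRT3 and SIRT5 were not called. Windows around the RefSeq transcript starts of the 10 genes (GRCh38.p14, 250 bases before to 50 after each start, 18 windows in all) were searched for ACGTG on either strand, the core with its most common first base. It was found in 6 of 18 windows, against 21.4% of 35116 windows of all genes, and CACGTG, which contains it on both strands, in 3 of 18, against 7.26%. The other core, GCGTG, was found in 10 of 18 windows, against 36.5%. At least 1 window of LDHA, PDHB, DLAT, PDK1, PDK2 and PC held ACGTG, and no window of LDHB, MPC1, MPC2 or PDHA1 did. For GCGTG the genes differed: LDHB, MPC1, MPC2 and PDHA1 held it, as did LDHA, PDHB, DLAT and PDK2, while no window of PDK1 or PC did. A match is a description of letters and no measure of binding. The windows that hold it are printed, chosen for the motif, for 3 of the 4 genes called in all settings and for LDHA, the known target, 5′ to 3′ on the gene's strand, with ACGTG or its complement CACGT in capitals; they lie at chr11:66958334-66958633 (- strand) for PC, chr2:172555840-172556139 (+ strand) for PDK1, chr17:50095101-50095400 (+ strand) for PDK2 and chr11:18394313-18394612 (+ strand) for LDHA.
PC: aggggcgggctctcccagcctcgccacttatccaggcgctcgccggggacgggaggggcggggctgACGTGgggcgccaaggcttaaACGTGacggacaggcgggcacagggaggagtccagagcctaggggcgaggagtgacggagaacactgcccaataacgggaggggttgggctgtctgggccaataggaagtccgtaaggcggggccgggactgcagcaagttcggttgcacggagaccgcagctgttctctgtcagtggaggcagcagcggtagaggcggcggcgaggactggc
PDK1: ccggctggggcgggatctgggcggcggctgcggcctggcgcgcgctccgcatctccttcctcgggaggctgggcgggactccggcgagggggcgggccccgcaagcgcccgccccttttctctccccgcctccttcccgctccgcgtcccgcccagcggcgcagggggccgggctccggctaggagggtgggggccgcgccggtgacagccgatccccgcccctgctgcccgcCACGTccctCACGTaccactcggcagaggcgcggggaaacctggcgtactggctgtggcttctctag
PDK2: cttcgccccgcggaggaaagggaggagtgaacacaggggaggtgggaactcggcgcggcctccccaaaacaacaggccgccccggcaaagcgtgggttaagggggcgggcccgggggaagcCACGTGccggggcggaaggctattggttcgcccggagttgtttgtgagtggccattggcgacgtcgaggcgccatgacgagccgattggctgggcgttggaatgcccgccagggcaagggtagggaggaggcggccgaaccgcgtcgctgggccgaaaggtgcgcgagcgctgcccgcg
LDHA: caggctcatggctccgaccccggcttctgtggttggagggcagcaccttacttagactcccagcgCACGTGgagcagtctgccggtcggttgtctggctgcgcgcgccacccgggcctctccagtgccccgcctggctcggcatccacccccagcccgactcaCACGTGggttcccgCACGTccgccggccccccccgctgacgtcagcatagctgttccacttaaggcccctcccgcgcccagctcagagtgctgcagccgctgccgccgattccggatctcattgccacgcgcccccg
With overlapping matches counted once, LDHA has 3 such sites in this window, PC 2, PDK1 2 and PDK2 1. MPC2, which was called lower, has no ACGTG in its 3 windows, of which 2 hold GCGTG, and DLAT, which was not called, has 1 ACGTG site.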

How the data were processed

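Poly(A) RNA from 6 samples was made into dUTP-stranded libraries and read from both ends, per the labels' protocols. Trimming and alignment tools are given as cutadapt 1.9 and HISAT2 2.2.1, on GRCh38, per the submitters' processing notes. How reads were counted, with which annotation and strand setting, is not given in the sources used here, so overlapping opposite-strand genes may share reads. Each library has 1 column of counts and 1 of FPKM in the deposited table, per the file headers; the counts are whole and unnormalized, and 58.7% to 60.9% of counts from 2 to 41 were even, so both mates may have been counted.

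The deposited counts of siMCT4 and control libraries were compared with edgeR 4.0.16 in R 4.3.3, using TMM factors, a quasi-likelihood test (two-sided) and no covariate. It covered 19944 genes that passed filterByExpr (smallest count 10, smallest total 15). FPKM values are as deposited, without TMM. Standard errors are the log2 change over the square root of F. Alternatives used DESeq2 1.42.0, limma 3.58.1 on log2(FPKM + 1), log2(FPKM + 0.1) and log2(TPM + 1), and a GC correction by a spline with 5 degrees of freedom per library, from GENCODE 29 transcripts (GC known for 94.9% of genes). The edgeR, DESeq2 and limma steps were tested on simulated data. The members, lists and ratios were chosen with earlier results of these data known. Named genes were the members, SLC16A3, and up to 4 called genes with the smallest adjusted p of each list. Others are mentioned by call, with the overlapping genes, copies, CD14, FCGR1A, CSF1R, CD79A, COL1A2, PKM, PDK4, PDP1, MDH1, SLC25A1, MYC and ESRRA chosen after their values were seen.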

Additional observations from a re-analysis of the deposited data

How the results depend on the processing

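The count of members called lower, 9 by edgeR with TMM, was 5 with library totals, 5 on log2(FPKM + 1), 5 on log2(FPKM + 0.1), 4 on TPM and 8 by DESeq2, with 0 called higher in any of the 18 settings. Of all 19944 genes tested, 4144 were lower by edgeR with TMM. In the other settings, in the same order, 3468, 3524, 3475, 2886 and 4299 were lower. Leaving out 1 library gave 5 to 10 members, beside 3195 to 5019 of all genes tested. PC, MPC2, PDK1 and PDK2 were lower in every setting; their log2 changes ran from -1.95 to -1.42, -1.83 to -0.66, -1.08 to -0.61 and -0.72 to -0.46. On TPM, where the median of all genes shifted by 0.13, MPC1 stood at 0.061 and DLAT at 0.078, which is -0.06 and -0.05 relative to the median of all genes there; library 3 alone gave 0.058 for DLAT. Other pathway genes called higher numbered 7 on TPM, against 4, beside 6245 and 4116 of all genes tested. Leaving out a library gave LDHA to LDHB differences of -0.022 to 0.082, MPC1 to MPC2 of 1.09 to 1.70, PDK1 to PDK2 of -0.38 to -0.30 and PC to PDHA1 of -1.76 to -1.47. With siMCT4 library 3 alone the LDHA to LDHB difference was -0.079, MPC1 to MPC2 0.50 and PC to PDHA1 -1.30. GC correction gave -0.59 for PDK1 to PDK2 and -1.19 for PC to PDHA1. The cause of these differences was not tested.

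Library numbers gave no sign of pairing: deviations of same-numbered libraries correlated at -0.128, -0.020 and -0.075, and no library correlated best with its own number. With 3 libraries per group, and siMCT4 library 3 apart from its group, this check cannot exclude a weak pairing. With the replicate block 6 members were lower and 6921 genes were called, against 8260 without it; with the replicate block and GC correction, 9 members and 7060 genes. The block left the 4 ratio differences at 0.028, 1.30, -0.33 and -1.60, and 3 other pathway genes higher and 15 lower. Every member had at least 956 counts in each library, while with 3 libraries per group no permutation p can go below 0.1. Fits that leave 1 siMCT4 library assume that it varies like the controls.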

Other observations

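Profiles over the 6 libraries, as log2 CPM minus the control mean, were compared between LDHA, PDK1 or PC and 9960 protein-coding genes with a mean FPKM of at least 1, by Euclidean distance in log2 units. Closest to PC were ITGA6, a laminin-binding integrin subunit, GATA2, a haematopoietic transcription factor, and AFAP1L1, at distances of 0.139, 0.146 and 0.152 and with log2 changes of -1.85, -1.87 and -1.90. Closest to PDK1 were PLD1, a phospholipase, ZNF521, a zinc finger protein, and MAP1B, a microtubule-associated protein, at 0.0945, 0.0971 and 0.108. Closest to LDHA were PFAS, an enzyme of purine synthesis, CLN6 and RILPL2, at 0.0811, 0.0832 and 0.0965. These are descriptions over 6 libraries in 2 groups, with no test.

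Among lactate transport genes, the siMCT4 libraries had lower SLC16A3 (log2 change -3.20) and BSG, the chaperone of MCT4 (-0.50, adjusted p = 0.00288 by edgeR). BSG has a GC content of 61.9%. Its log2 ratios to the control mean were -0.62, -0.59 and -0.30 in siMCT4 libraries 1, 2 and 3. Genes with a GC content of 60% or more had medians of -0.57, -0.60 and -0.18 there. The part of GC content in the BSG change was not tested. SLC16A7 was lower too (-0.66, adjusted p = 0.00995 by edgeR), at means of 0.360 FPKM in siMCT4 libraries and 0.530 FPKM in controls. EMB, another chaperone of the family, was higher (0.49), and SLC16A1, which encodes MCT1, was not called (0.12, adjusted p = 0.108 by edgeR).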
